A study of Rattus norvegicus with 6 samples.

Results

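DQ732700 and DQ746748 are 2 rat piRNAs known to have been taken further by the study in functional work on beta cells. They were taken by probe name (DQ732700P and DQ746748P), with no filter on their values, from the 39727 piRNA probes on the array. Each has 1 probe with 1 spot, and the choice was made with earlier results of these data known. Their levels were compared between pancreatic islets of rat pups aged 10 days (P10, for postnatal day 10) and islets of adult rats aged 3 months. The 3 P10 samples each held islets pooled from 2 pups, and each of the 3 adult samples came from 1 rat. Both ages were untreated as far as the labels tell, and no strain or sex is given for them in the labels used. Whole islets mix beta cells with other endocrine and supporting cells, so fewer cells of a type and less RNA per cell cannot be told apart in these samples.

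PIWI-interacting RNAs (piRNAs) are small RNAs loaded onto PIWI proteins of the Argonaute family. In the germline they guide these proteins to transposon transcripts, which are cut or silenced at the chromatin. Unlike miRNAs they are made without Dicer, and their work outside the germline is less well understood. In beta cells, the insulin-secreting cells of the islet, the first weeks after birth are the time in which insulin release becomes tuned to glucose. No gene position or sequence is stated for these piRNAs, because the files used here name the probes by database entry only. The array carried no matched probe for any of 16 genes of the piRNA pathway, such as the PIWI family gene Piwil2. It also carried none for 25 marker genes of islet, exocrine, stromal and blood cells, Ins2 and Gcg among them. The tissue label could thus not be checked with these genes. The matching is limited by the names, since 61 of the 159 other probes were named through RefSeq accessions.

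Each array was read in 1 colour, after total RNA had been labelled at its 3′ ends with Cy3. Between 10964 and 14598 piRNA probes per array were well above background, and no spot was saturated. The arrays did not separate cleanly by age. Over the tested probes the array most like P10 1 was Adult 1 (r = 0.940), ahead of P10 3 (r = 0.906) and P10 2 (r = 0.888). Slides were inferred from the scan identifiers in the file headers, which do not name a slide. Adult 1 shared its identifier with all P10 arrays (called slide 1), and the remaining adult arrays shared another (called slide 2). Slide in this sense and age thus overlap in part. Results for both piRNAs are therefore given with and without these arrays.

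Both piRNAs were well above background on all 6 arrays, as were 22.3% of all piRNA probes. DQ732700 was the more variable of them and DQ746748 was dim on every array. Neither passed the adjusted threshold for a difference between ages (0 of 2, against 5.91% of the 11900 probes with a p-value; limma, Benjamini-Hochberg threshold of 0.05). In neither did all levels of 1 age lie above all levels of the other, a separation seen in 31.7% of tested probes with 6 values. DQ732700 alone had an unadjusted p below 0.05 (1 of 2, against 28.1% of tested probes; limma).

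The processed signal of DQ732700, which is the spot's brightness after background subtraction, was 54.5 in P10 1, 428 in P10 2 and 177 in P10 3. In adult islets it was 24.1 in Adult 1, 44.6 in Adult 2 and 12.6 in Adult 3. Every P10 signal thus lay above every adult signal, with P10 1 close to Adult 2, before any scaling between arrays. The geometric mean was 160 in P10 and 23.8 in adult islets (exact permutation test on log2 signals, two-sided, p = 0.1, the smallest p that 3 against 3 arrays allow). The brightest of the 6 arrays, P10 2, was 33.9-fold above the dimmest, Adult 3. Within an age the highest signal was 7.85-fold above the lowest in P10 and 3.53-fold in adult islets. Before scaling, the median adult minus P10 difference of all tested probes was also negative, at -0.25 (log2). The share of all probes whose ages separate on unscaled signals was not counted, and on scaled levels it was 31.7%.

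**Figure D1:**
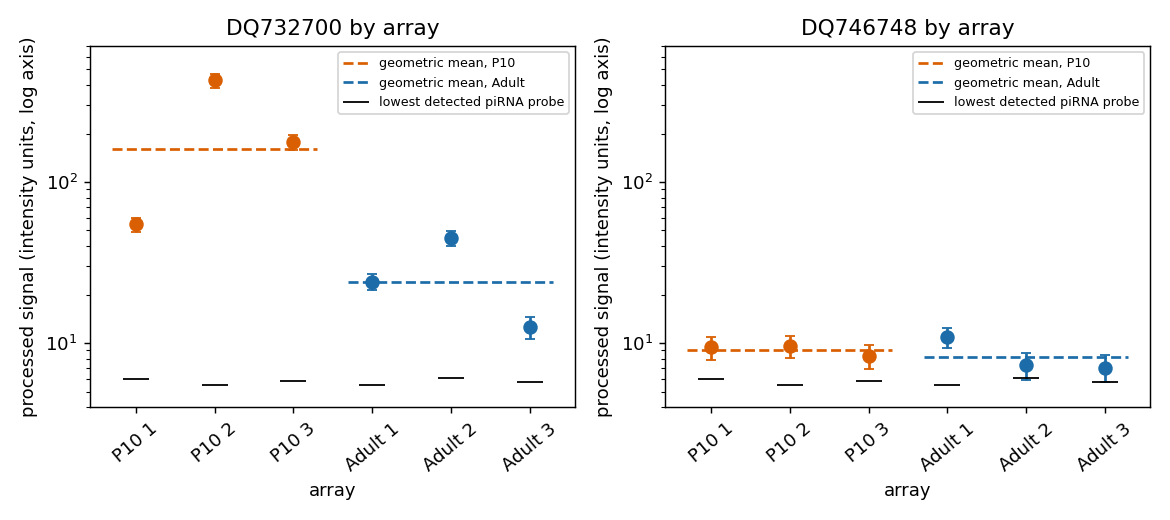
Processed signal (vertical log axis, intensity units) of DQ732700 and DQ746748 on each of the 6 arrays, with the scanner software's own error of the spot as bars, dashed lines at the geometric mean of each age and black ticks at the lowest signal among detected piRNA probes. DQ732700 ranges from 12.6 to 428, and on these unscaled signals all P10 arrays lie above all adult arrays, whereas after scaling the ages overlap. DQ746748 stays between 7.04 and 10.9, close to the ticks.

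To compare arrays, levels were expressed as log2 of the signal minus log2 of the array's own 75th percentile over piRNA probes detected on all 6 arrays. On this scale DQ732700 was at -1.68 in P10 1, 2.16 in P10 2 and 0.34 in P10 3. In adult islets its level was -2.54 in Adult 1, -1.28 in Adult 2 and -2.997 in Adult 3. After scaling the ages overlapped, because P10 1 lay below Adult 2 while P10 2 and P10 3 stayed above all adult arrays. The order from highest to lowest was P10 2, P10 3, Adult 2, P10 1, Adult 1 and Adult 3.

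The mean level of DQ732700 was 0.27 ± 1.92 in P10 and -2.27 ± 0.89 in adult islets (SD, n = 3 each). The adult minus P10 difference was -2.54 ± 0.93 (log2, SE), or 5.83-fold higher in P10, with a 95% interval of 1.30-fold to 26.2-fold that is not adjusted for the number of probes. It did not pass the threshold (limma adjusted p = 0.128, unadjusted p = 0.0272). The exact permutation test on the 6 levels gave p = 0.2 (two-sided). Only 2.45% of the tested probes had a lower adult minus P10 difference, whose median over all tested probes was -0.04. Its residual SD of 1.50 also exceeded that of 97.2% of tested probes, whose median was 0.47. A large difference in means thus stood beside a large spread between arrays of the same age.

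**Figure D2:**
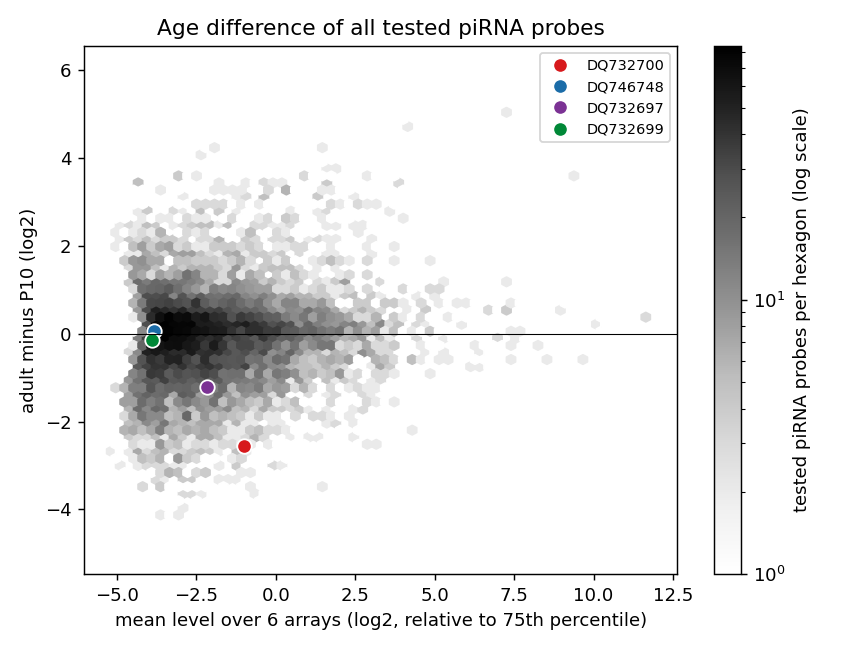
Adult minus P10 difference (log2, vertical axis) against mean level over the 6 arrays (log2 relative to the array's 75th percentile, horizontal axis) for the 11900 tested piRNA probes, counted per hexagon on a log grey scale. DQ732700 sits near the lower edge at -2.54 and DQ746748 at 0.07 among dim probes; DQ732697 and DQ732699, near DQ732700 by entry number, are at -1.21 and -0.15.

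The rank of the spot within its own array needs no scaling. The DQ732700 signal was at or above that of 87.7%, 98.1% and 95.1% of all piRNA probes in P10 1, P10 2 and P10 3. The shares in adult islets were 82.4% (Adult 1), 89.8% (Adult 2) and 79.0% (Adult 3). The ages overlapped on this measure as well, through P10 1 and Adult 2, with means of 93.6% ± 5.35 and 83.7% ± 5.50 (SD, n = 3; exact permutation test, two-sided, p = 0.2).

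The call on DQ732700 depended on P10 1. Without this array the difference was -3.52 ± 0.70 (SE) and passed the threshold (limma adjusted p = 0.0226, with 14.9% of all tested probes passing). Without P10 2, its highest array, the difference was -1.60 ± 0.76 (limma adjusted p = 0.266). Leaving out both arrays numbered 1 gave -3.39 (limma adjusted p = 0.0215, 30.4% passing), and array weights, which gave P10 1 and Adult 1 the lowest weights of 0.47 and 0.43, gave -2.58 (limma adjusted p = 0.0411, 32.5% passing). In these fits a large share of all probes passed together with DQ732700.

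Within slide 1 a single adult array, Adult 1, could be compared with the 3 P10 arrays. The difference of DQ732700 was -2.81 there (95% interval -6.14 to 0.52; limma adjusted p = 0.668), with the spread taken from the P10 arrays and Adult 1 assumed to vary like them. The fit with slide as a term rests on the same contrast, because slide 2 held no P10 array, and gave the same -2.81 (limma adjusted p = 0.514). For the other two adult arrays, both on slide 2, slide and age cannot be told apart. Handling of the background changed the size, from -2.54 as reported to -1.93 with the uncorrected signal (limma adjusted p = 0.156). With normexp, a model-based correction run here with an offset of 50 added to every spot, the difference was -0.93 (limma adjusted p = 0.697). Such an offset shrinks differences of dim spots by construction, and the effects of offset and model were not separated. Under the same correction the median difference of all tested probes moved to 0.31.

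**Figure D3:**
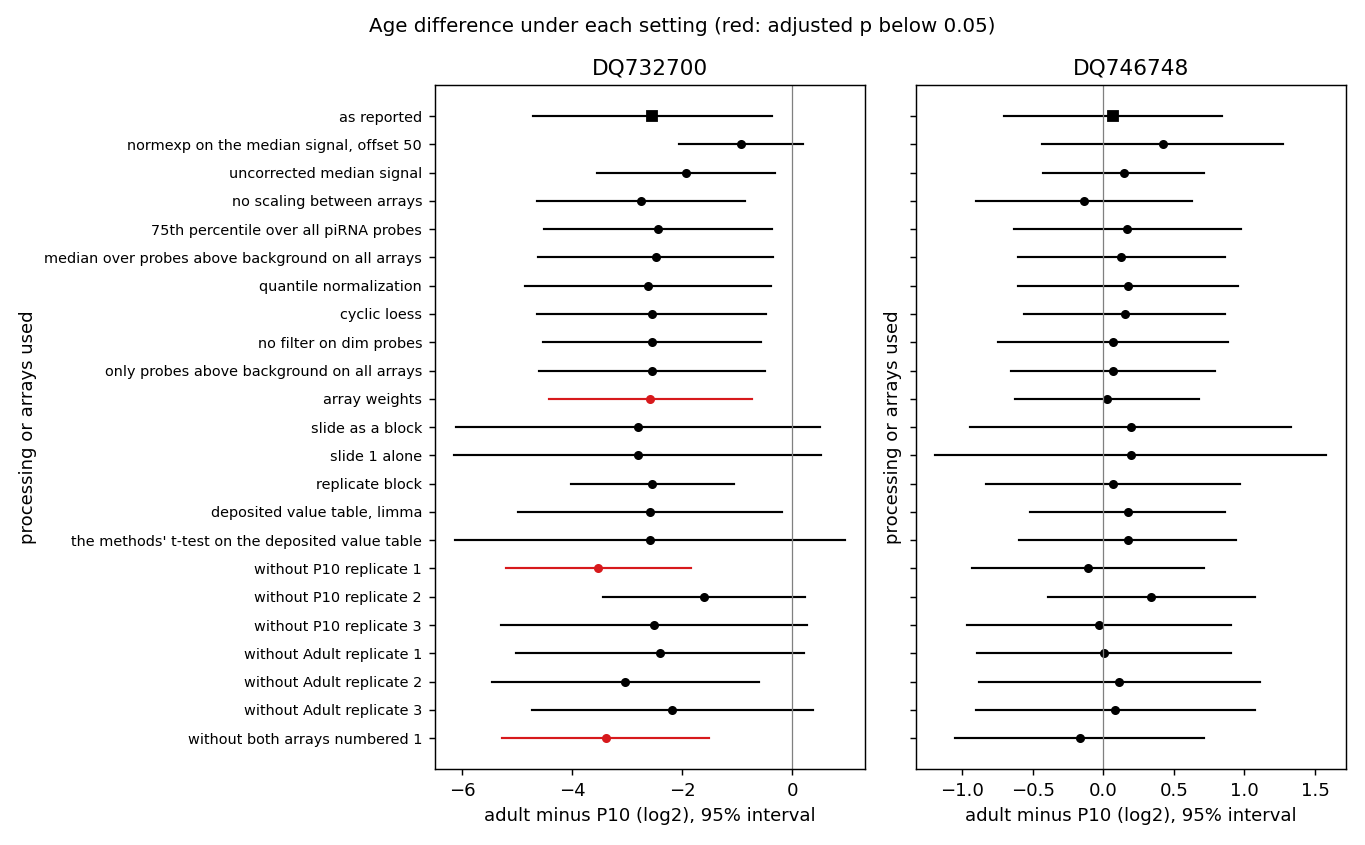
Adult minus P10 difference (log2, horizontal axis, a separate scale in each panel) with its 95% interval for both piRNAs as reported and under each of 22 other settings or selections of arrays; red marks an adjusted p below 0.05. DQ732700 is negative in every row, between -3.52 and -0.93, and red in 3, whereas the DQ746748 differences lie on both sides of 0, between -0.17 and 0.42, and none is red.

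DQ746748 gave nearly the same faint signal on every array. Its processed signal was 9.41 in P10 1, 9.53 in P10 2 and 8.36 in P10 3. In the adult arrays it was 10.9 in Adult 1, 7.29 in Adult 2 and 7.04 in Adult 3. Its brightest array was 1.55-fold above the dimmest, and the ages overlapped. The median raw signal of the spot was between 1.48 and 1.69 times its local background, and the processed signal lay between 1.21 and 2.00 times the lowest signal of any detected piRNA probe on the same array. DQ746748 thus lay close to the dimmest detected probes of each array. The corresponding multiple of that lowest signal for DQ732700 was between 2.2 and 77.5.

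Relative to the 75th percentile, DQ746748 was at -4.22 in P10 1, -3.33 in P10 2 and -4.07 in P10 3 (log2). In adult islets its level was -3.68 in Adult 1, -3.89 in Adult 2 and -3.84 in Adult 3. Its adult levels lay within the range of the P10 levels, at -3.80 ± 0.11 against -3.87 ± 0.48 (SD, n = 3 each). The adult minus P10 difference was 0.07 ± 0.33 (SE), or 1.05-fold higher in adult islets with a 95% interval of 0.614-fold to 1.79-fold (limma adjusted p = 0.909; exact permutation test, two-sided, p = 0.9). The interval, not adjusted for the number of probes, holds changes of up to 1.79-fold upward and 1.63-fold downward. Changes within these bounds are therefore not excluded, and the bounds are no limit of detection.

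The sign of the DQ746748 difference changed with the processing and the arrays used. On slide 1 alone, without Adult 2 and Adult 3, the difference was 0.19. It was -0.14 without scaling between arrays, -0.11 without P10 1 and 0.34 without P10 2, and in none of 22 alternatives did it pass the threshold (limma or the methods' t-test, adjusted p between 0.512 and 0.994). Scaling also set part of its spread. The signals of P10 1 and P10 2, 9.41 and 9.53, were nearly equal, but their levels differed because the 75th percentile was 175 on P10 1 and 95.7 on P10 2. Within its array the spot was at or above 68.6%, 75.9% and 68.0% of piRNA probes in P10 1, P10 2 and P10 3. The shares in adult islets were 72.8% (Adult 1), 73.7% (Adult 2) and 71.3% (Adult 3), inside the P10 range.

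Spot error was small against the difference between arrays for DQ732700 and not for DQ746748. The scanner software's own error was between 10.0% and 15.5% of the signal for DQ732700 and between 14.2% and 19.5% for DQ746748. The piRNA probes have no repeat spots, so probes printed as 10 spots were used as a guide. At signals within the range of DQ732700 their spots had a median SD of 0.11 (log2, 307 sets of spots), against SDs between arrays of 1.92 in P10 and 0.89 in adult islets for the piRNA itself. At signals within the range of DQ746748 the median SD was 0.27 (45 sets of spots), against SDs between arrays of 0.48 in P10 and 0.11 in adult islets. The SDs between arrays are those of scaled levels, whereas the spot SD within an array is unchanged by a scaling factor.

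The age differences of the 2 piRNAs were compared directly through their log2 signal difference within each array, which any scaling factor of the array leaves unchanged. A difference between probes is no ratio of RNA amounts, and only its change between ages was read. DQ732700 minus DQ746748 was 2.53 in P10 1, 5.49 in P10 2 and 4.41 in P10 3. It was 1.14 in Adult 1, 2.61 in Adult 2 and 0.84 in Adult 3. P10 2 and P10 3 lay above all adult arrays, and P10 1 lay just below Adult 2. The means were 4.14 ± 1.49 and 1.53 ± 0.95 (SD, n = 3), a change of -2.61 between ages (exact permutation test, two-sided, p = 0.2). The change lay between -3.42 and -1.94 with 1 array left out. With the uncorrected signal, with normexp and with the deposited values the ages did not overlap, at changes of -2.08, -1.35 and -2.76 (exact permutation test, two-sided, p = 0.1 each). No arrangement of 3 against 3 can go below 0.1, so this test had no way to pass 0.05. How often the ages separate in such a difference between any 2 probes was not counted. Of single tested probes with a value on every array, 31.7% separated by age on scaled levels. With the deposited values the separation was narrow. There DQ732700 and DQ746748 were at 5.29 and 2.78 in P10 1, and at 5.76 and 3.32 in Adult 2.

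Of the 12 database entries within 3 numbers of either piRNA, 6 had a probe on the array. Entry numbers follow submission to the database, and whether near numbers lie near each other in the genome is not known from these files. Beside DQ732700, the entry 3 numbers below it, DQ732697, was bright enough to be tested. Its processed signal was 20.7 in P10 2 and 86.8 in P10 3, while its spot on P10 1 carried an outlier mark and was left out. In adult islets it was 46.5 in Adult 1, 11.7 in Adult 2 and 11.1 in Adult 3. On these unscaled signals its highest array was P10 3, where that of DQ732700 was P10 2, and Adult 3 was the lowest array of both. After scaling, the lowest array of DQ732697 was Adult 2, at -3.21 against -3.18 in Adult 3.

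The adult minus P10 difference of DQ732697 was -1.21 ± 0.68 (SE, 2 P10 and 3 adult arrays; limma adjusted p = 0.291). With 1 array left out it lay between -1.97 and -0.45, and on slide 1 alone, without Adult 2 and Adult 3, it was -0.14. With array weights it was -1.82 and passed the threshold (limma adjusted p = 0.0396, 32.5% of all tested probes passing). The entry just below DQ732700, DQ732699, was faint on all arrays, between 7.80 and 13.3 in P10 and between 6.31 and 9.32 in adult islets. Its difference was -0.15 ± 0.34 (SE; limma adjusted p = 0.805), and it changed sign with normexp (0.43), with the uncorrected signal (0.11) and with array weights (0.12). DQ732698 was above background on Adult 1 only, at 8.60, and DQ732702 on no array, with signals between 1.22 and 2.48.

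Neither entry next to DQ746748 was detected. DQ746747 gave signals between 1.12 and 1.78 and DQ746749 between 1.11 and 1.21, on no array well above background. The scanner software's own error was between 69.7% and 100% of the signal at these spots, so these numbers are not amounts. Of all piRNA probes, 53.3% were above background on no array. DQ746748 was thus the only detected piRNA among the 3 probed entries from DQ746747 to DQ746749.

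**Figure D4:**
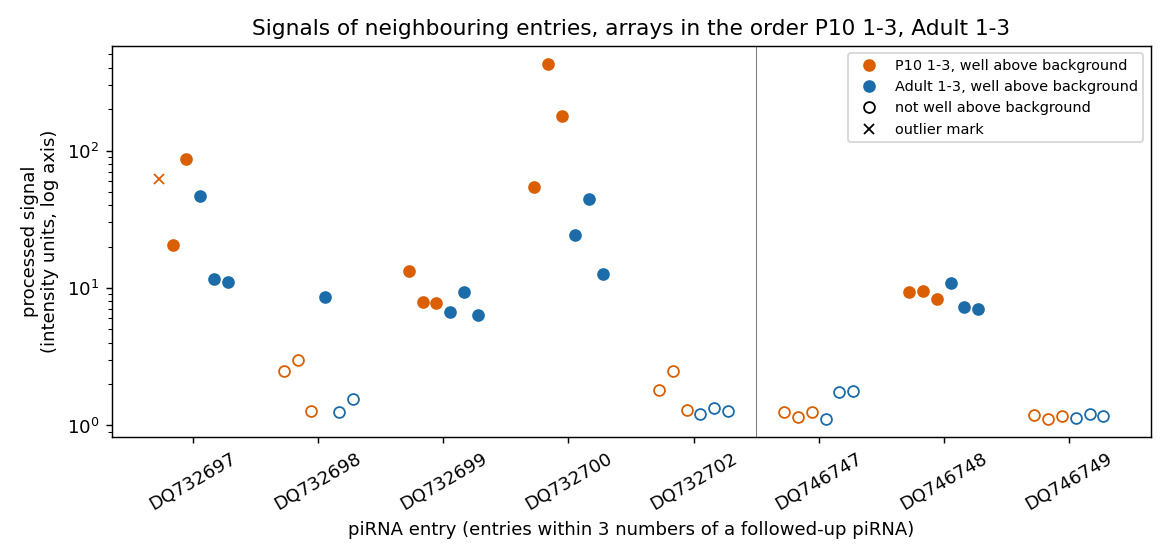
Processed signal (vertical log axis, intensity units) of the 2 piRNAs and of the 6 probed entries within 3 numbers of them, with 6 points per probe in the order P10 1 to 3 and Adult 1 to 3. Filled points are well above background, open points are not, and the cross carries an outlier mark; DQ732697, DQ732699, DQ732700 and DQ746748 are filled on every unmarked array, and DQ732702, DQ746747 and DQ746749 are open on all 6.

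Across the whole table, near entries resembled each other weakly. Probes 1 entry apart had adult minus P10 differences that correlated at r = 0.27 over 2794 pairs of tested probes. The value was 0.17 at 2 entries, 0.09 at 3 entries and 0.03 at 100 entries apart. These are correlations across probes on the same 6 arrays, and probes that share sequence or brightness are not independent.

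The probes most like each piRNA were sought among the 8873 other probes detected on all 6 arrays, by the Pearson correlation of levels over the 6 arrays. For DQ732700 the 5 most alike were DQ735536 (r = 0.994), DQ749662 (r = 0.991), DQ753087 (r = 0.990), DQ747504 (r = 0.989) and DQ626990 (r = 0.989). All of them share the same arrays, and 3.52% of the probes searched had r above 0.9. Most followed the pattern at a smaller size, with adult minus P10 differences between -0.81 and -0.49, and none of the 5 passed the threshold (limma, with 5.91% of tested probes passing).

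DQ747504 matched DQ732700 in size as well. Its processed signal was 216 in P10 1, 1450 in P10 2 and 658 in P10 3. In adult islets it was 76.6 in Adult 1, 227 in Adult 2 and 64.6 in Adult 3. Again P10 2 was highest, P10 1 lay close to Adult 2, and Adult 1 and Adult 3 were lowest. A likeness in array order follows from the choice by correlation. After each probe was centred on its own mean, the levels of DQ747504 and DQ732700 differed by a root mean square of 0.27 (log2). Its adult minus P10 difference was -2.30 (limma adjusted p = 0.157).

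For DQ746748 the 5 most alike were DQ616381 (r = 0.996), DQ736405 (r = 0.982), DQ734132 (r = 0.977), DQ751526 (r = 0.973) and DQ765401 (r = 0.972), and 0.665% of the probes searched had r above 0.9. Their root mean square differences from DQ746748, after centring, were between 0.06 and 0.22. All 5 were dim, with the highest level at -1.74, and all were highest in P10 2, the array with the lowest 75th percentile. The signals of DQ736405, the closest in size, were 20.8, 21.4 and 19.3 in P10 1, P10 2 and P10 3. They were 25.5, 17.2 and 14.8 in Adult 1, Adult 2 and Adult 3, with Adult 1 highest as for DQ746748. None of the 5 differed between ages by more than 0.28 (limma adjusted p between 0.696 and 0.964). The choice by correlation favours probes with the array pattern of DQ746748, so these differences and the shared peak are no separate evidence.

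**Figure D5:**
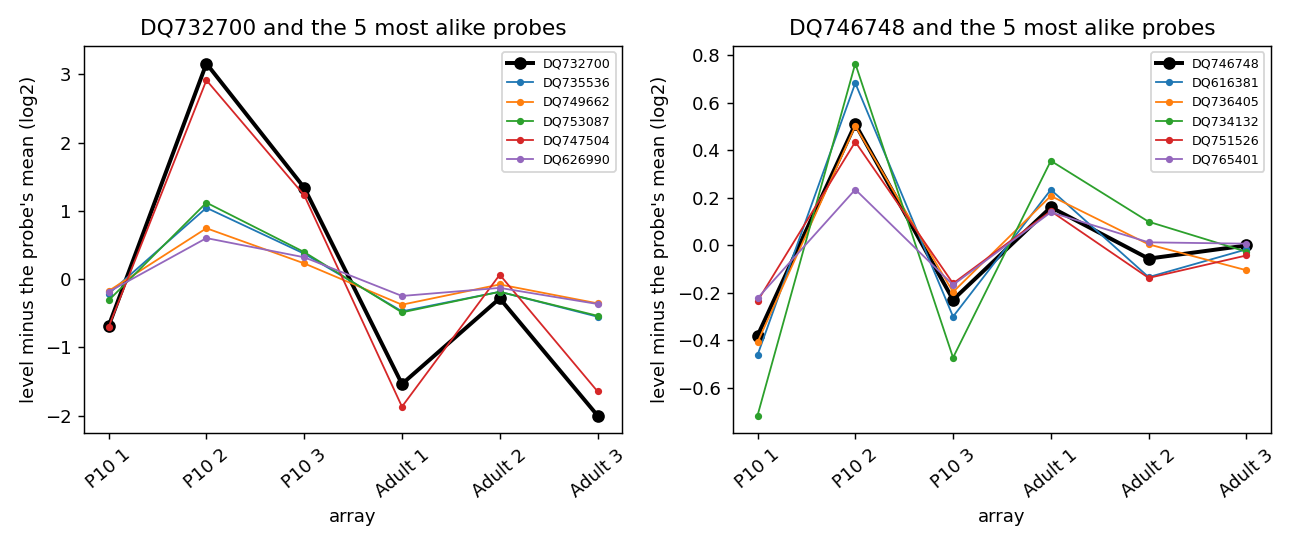
Level minus the probe's own mean over the 6 arrays (log2, vertical axis, a separate scale in each panel) for each followed-up piRNA (black) and its 5 most correlated probes. DQ747504 overlies DQ732700 while the other 4 follow it at a smaller size, and the probes alike to DQ746748 all peak at P10 2.

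The value table deposited by the authors, in which 18540 piRNA probes carry normalized log2 values, holds both piRNAs. DQ732700 is there at 5.29, 9.28 and 7.29 in P10 1, P10 2 and P10 3. Its adult values are 4.40, 5.76 and 3.95 in Adult 1, Adult 2 and Adult 3, with the same overlap of P10 1 and Adult 2. The difference of means was 5.999-fold, above the limit of 2-fold that the header of the comparison table sets. The unadjusted p of the methods' t-test on these values of the authors, p = 0.113 (0.451 after Benjamini-Hochberg), was above the limit of 0.05 in the same header. DQ746748 is at 2.78, 3.56 and 2.74 in P10 1, P10 2 and P10 3, and at 3.22, 3.32 and 3.06 in the adult arrays. Its adult minus P10 difference in this table of the authors was 0.17 (the methods' t-test, p = 0.567 unadjusted). Of these 2 piRNAs and their 6 probed neighbours, the 1791 entries of the authors' deposited table of changes name none.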

How the data were processed

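Small RNA was measured on 6 one-colour Agilent arrays. Per the file headers, the deposited intensity values come from the scanner software Agilent Feature Extraction (version 11.0.1.1), with background subtracted and no scaling between arrays. The deposited log2 values of the value table are the authors' normalized intensities, and the p-value and fold in their table of changed piRNAs come from the methods' t-test, which is unpaired, per the file headers. The software behind the value table is not given in these sources.

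Spots with an outlier mark were left out (between 82 and 154 per array). Levels are log2 processed signal minus the array's 75th percentile. Every piRNA probe detected (well above background) throughout P10, throughout adult, or both was fitted with limma 3.58.1 (R 4.3.3), two-sided, with Benjamini-Hochberg adjustment over all 11900 of them with a p-value. The fit was tested on simulated data. Figures used matplotlib 3.10.9. Named probes are both piRNAs, probed entries within 3 numbers, and the 5 most correlated probes of each. Of 159 other probes, 61 were named through RefSeq accessions (GRCr8). The members and lists were chosen with earlier results of these data known. The number of arrays limits the precision. No column of per-sample values was unused.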

Additional observations from a re-analysis of the deposited data

How the results depend on the processing

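Over 22 alternatives DQ732700 kept its direction, between -3.52 and -0.93 on the log2 scale, and passed the threshold in 3 of them: leaving out P10 1, leaving out both arrays numbered 1 (-3.39) and weighting the arrays (-2.58). With 1 array left out it lay between -3.52 and -1.60. DQ746748 turned negative without scaling (-0.14), without both arrays numbered 1 (-0.17) and in 2 of the leave-one-out fits, which lay between -0.11 and 0.34. DQ732699 turned positive with normexp (0.43), the uncorrected signal (0.11), array weights (0.12), without Adult 1 (0.058, leave-one-out range -0.36 to 0.058) and without both arrays numbered 1 (0.11). DQ732697 stayed negative in each alternative that could be fitted, between -1.97 and -0.14, and passed the threshold with array weights (-1.82). The within-array difference of the 2 piRNAs kept its sign over 12 alternatives, between -3.42 and -1.35. On ranks its exact permutation p was 0.2.

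The number of piRNA probes called, 703 over all arrays, was 66 with normexp, 446 with median scaling, 0 with cyclic loess, without scaling, without a filter on dim probes and with limma on the deposited value table, 1 with slide as a block, on slide 1 alone and by the methods' t-test, 3867 with array weights and 3614 without both arrays numbered 1. It lay between 0 and 2058 with 1 array left out (limma), with 1767 without P10 1 and 2058 without Adult 1. The causes were not tested. The labels do not say whether same-numbered samples share more than a number. Their deviations from the age means correlated at -0.04, 0.24 and -0.23, against values between -0.23 and 0.31 for differently numbered samples. With 3 arrays per age these correlations cannot decide it. With the replicate block, DQ732700 was at -2.54 (limma adjusted p = 0.0793), DQ746748 at 0.07, the within-array difference at -2.61, and 0 probes were called. Normexp was run on the median signal, because the files hold no mean signal, and it and the fit without scaling were chosen after seeing the data. DQ732697 could not be fitted with cyclic loess or with only probes detected on all arrays, because its P10 1 spot was left out. Signals of DQ746748 near background limit what it can show.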
